A study of Mus musculus with 8 samples.

Results

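The baseline transcriptome of mouse osteoblasts is described here from the 3 libraries of mice injected with phosphate-buffered saline (PBS). Its members are the genes with at least 10 counts in each of the 3 PBS libraries, which were 12765 of the 21154 genes in the deposited table. Of these, 11589 (90.8%) are protein coding in the annotation used for gene length. The series asks how chemotherapy affects cells of the skeleton, and its other group is 5 libraries titled as doxorubicin (DOX). Among them, DOX replicate 1 has a treatment tag of PBS. All mice were female Col2.3-GFP reporter mice, in which a fragment of the Col1a1 promoter drives green fluorescent protein in cells of the osteoblast lineage. They were 8 to 10 weeks old when treated and received 4 intravenous injections at intervals of 1 week, of PBS or of doxorubicin at 5 mg/kg. Bone was taken 8 weeks after treatment. It was spun free of marrow, chopped and treated with enzymes for 25 min at 37 °C, and cells positive for GFP were isolated by sorting. Sorting on a Col1a1 promoter fragment selects for cells in which that promoter is active, so a high level of Col1a1 was part of the selection. PBS replicate 1 belongs to batch 1 of the labels, and PBS replicates 2 and 3 belong to batch 2. The sources used here do not say whether a batch is a day, a sort or a sequencing run. Among the PBS libraries, batch, mouse and library therefore cannot be told apart.

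Osteoblasts build bone by secreting type I collagen and by loading it with proteins that bind collagen and mineral. The chains are hydroxylated, folded and packed in the endoplasmic reticulum, and after secretion they are trimmed and crosslinked. Calcium phosphate is then deposited between the fibrils once phosphatases have freed phosphate and removed pyrophosphate, which blocks crystal growth. The factors RUNX2 and SP7 (osterix) direct the lineage, parathyroid hormone and WNT ligands regulate it from outside, and osteoblasts in turn signal to osteoclasts and to blood-forming cells. Some osteoblasts become buried as osteocytes, which express Dmp1, Phex, Mepe and Sost.

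The PBS libraries held 40985302, 44299591 and 43806077 counts for replicates 1, 2 and 3, and the members took 99.7 to 99.9% of them. The titles name the libraries as biological replicates, and every SD below is over these 3 libraries (n = 3). At the edge of the rule, 109 members had a lowest count of exactly 10 and 156 genes outside it had a lowest count of exactly 9. Levels are given as CPM, the count of a gene relative to the library size after scaling by the trimmed mean of M values (TMM), so they need not add up to the same sum in each library. The TMM factors were 1.34, 0.874 and 0.857. A level in CPM counts reads and grows with transcript length, so levels of different genes are set against each other per kilobase of exon (CPM per kilobase). A rank by mean CPM orders genes by their reads and not by level per length. Spread is the SD of log2 CPM over the 3 libraries and the ratio of the highest to the lowest library.

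The 4 defining osteoblast genes were abundant in every PBS library. Col1a1, the α1 chain of type I collagen, stood at 80191, 254181 and 255715 CPM in replicates 1, 2 and 3 and ranked 1 of all members by mean CPM. Bglap, which encodes osteocalcin, stood at 12843, 19247 and 23052 CPM (rank 4). Alpl, the tissue-nonspecific alkaline phosphatase that cleaves pyrophosphate, stood at 1529, 1834 and 1867 CPM (rank 32), and Sp7 stood at 310.3, 547 and 502 CPM (rank 156). The libraries thus held the markers of the labelled cell type. Replicate 1 was below replicates 2 and 3 for Col1a1 under each scaling tried, and for Bglap and Sp7 the gap depended on the scaling. With plain library totals Bglap stood at 17150, 16817 and 19758 CPM and Sp7 at 414, 478 and 430.0 CPM, so replicate 1 was no longer the lowest for Bglap. Where no other scaling is named, statements that a library was high or low, or that a gene was even, are for TMM scaling.

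The starts of 3 of the most abundant bone matrix genes are shown because they were abundant and their levels moved differently between the libraries. Spp1 varied most under each scaling tried, and whether Bglap or Ibsp was the more even depended on the scaling. Spp1 and Ibsp, which encode osteopontin and bone sialoprotein, lie on the same chromosome and moved apart between the libraries. The sequences are the 250 bases before the annotated start, from RefSeq on build GRCm38.p6, 5′ to 3′ on the strand of the gene, and capitals mark the RUNX core ACCACA. The windows are chr3:88384467-88384716 on the minus strand for Bglap, chr5:104299037-104299286 on the plus strand for Ibsp and chr5:104434861-104435110 on the plus strand for Spp1.
Bglap: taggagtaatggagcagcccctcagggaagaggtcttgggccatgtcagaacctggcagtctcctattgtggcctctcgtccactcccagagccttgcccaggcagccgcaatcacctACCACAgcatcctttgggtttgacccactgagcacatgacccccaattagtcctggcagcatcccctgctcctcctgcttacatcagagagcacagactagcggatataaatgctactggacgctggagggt
Ibsp: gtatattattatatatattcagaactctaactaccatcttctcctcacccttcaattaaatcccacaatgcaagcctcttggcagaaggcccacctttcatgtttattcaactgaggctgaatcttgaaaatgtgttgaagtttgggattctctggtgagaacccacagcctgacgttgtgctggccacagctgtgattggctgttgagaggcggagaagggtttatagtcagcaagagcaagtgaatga
Spp1: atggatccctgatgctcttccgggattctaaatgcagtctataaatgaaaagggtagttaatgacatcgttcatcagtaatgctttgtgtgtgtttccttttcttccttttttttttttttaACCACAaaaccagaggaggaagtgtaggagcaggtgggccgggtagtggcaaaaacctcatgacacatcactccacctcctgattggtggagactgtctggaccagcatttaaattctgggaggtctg
The motif ACCACA, searched on both strands (TGTGGT on the other), began 132 bases before the start of Bglap and 128 bases before that of Spp1, and these letters were not in the Ibsp window. It was present in 14.05% of all 32851 promoter windows of this length, in 10.2% of the 9666 members with a window and in 13.8% of the 65 with a window among the 100 members of highest mean CPM. A match is a description of the letters only.

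A small number of transcripts made up much of each library. Col1a1 and Col1a2, the α2 chain, together took 19.1% of the counts of replicate 1, 39.5% of replicate 2 and 38.7% of replicate 3. The 10 most abundant genes took 32.1, 50.8 and 51.5%, and the 100 most abundant took 46.3, 62.9 and 63.7%. Replicate 1 was lower than the others in all 3 of these shares. The 54 members above 1000 CPM held 55.5% of the summed mean CPM, the 944 members from 100 to 1000 CPM held 21.7%, and the 4468 members from 1 to 10 CPM held 1.96%.

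The 25 members of highest mean CPM were mostly genes of the matrix and its assembly. Those reported here were, in rank order, Col1a1, Col1a2, Sparc, Bglap, Ibsp, Spp1, Lars2, Bglap2, Dcn, Col11a1, Car3, Serpinh1, Col2a1, Col11a2, Serpinf1, Col5a2, Gpx3, Lum, Gja1, Cpe, Itm2b, Bgn, Mmp13 and Lox. Of the 25, 6 encode fibril-forming collagen chains, and 24 were within the top 50 of every PBS library. With TMM scaling 14 of the 25 differed by over 2-fold between libraries, where 2902 of all 12765 members (22.7%) did. With library totals this order turned, with 8 of 25 (32%) against 4961 of all members (38.9%). Replicate 1 was the lowest library for 22 of the 25 with TMM scaling, for 19 with totals that leave out Col1a1 and Col1a2, and for 16 with plain library totals. Of all 12765 members it was the lowest for 5165, 3363 and 1196 under these scalings.

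**Figure D1:**
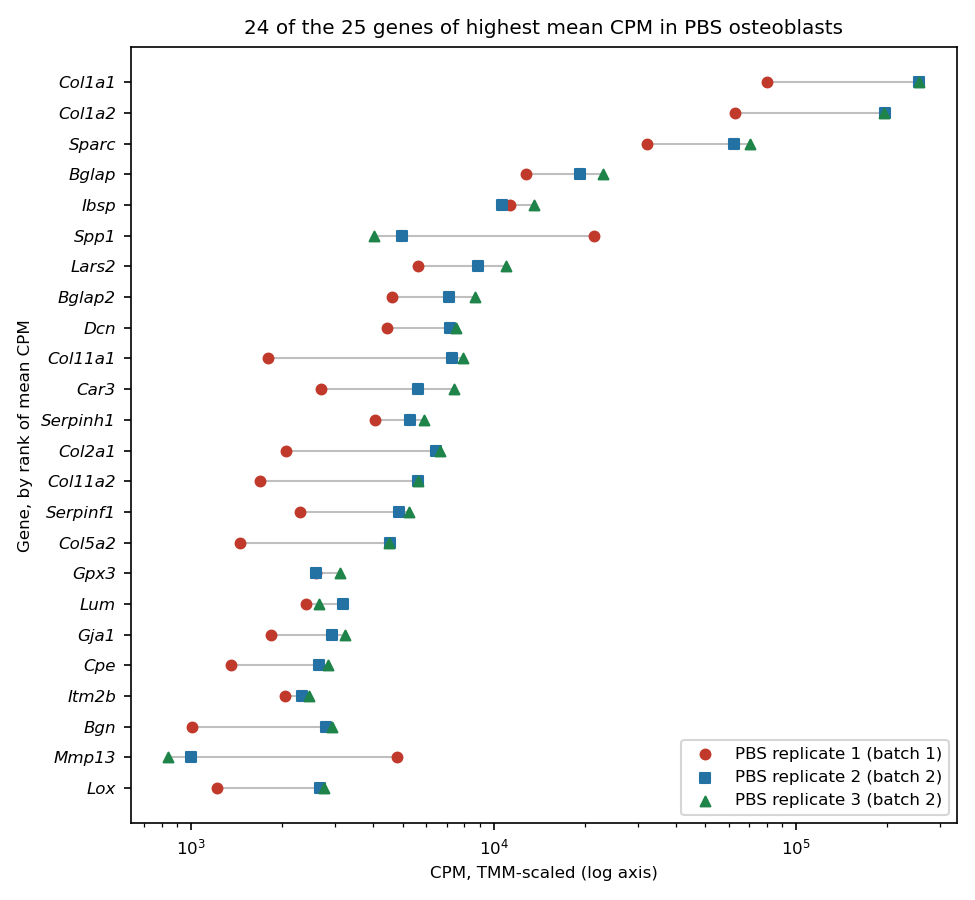
CPM after TMM scaling (log axis) of 24 of the 25 members of highest mean CPM, 1 row per gene, with a symbol for each PBS library and a grey line from the lowest to the highest. Replicate 1 lies to the left of replicates 2 and 3 for most genes, and far to the right for Spp1 and Mmp13.

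Among the collagens, 30 of the 43 chain genes in the table were members, of which 13 were lowest in replicate 1, as type I collagen was, 15 were highest there and 2 were neither. Col1a2 stood at 62779, 197505 and 195392 CPM, so the ratio of Col1a1 to Col1a2 per kilobase was 1.15, 1.16 and 1.18 although Col1a1 differed 3.19-fold and Col1a2 3.15-fold between the lowest and highest library. Col5a2, which forms mixed fibrils with type I collagen, stood at 1447, 4545 and 4523 CPM. Col11a1 and Col11a2, chains of the related type XI collagen, stood at 1790.4, 7286 and 7938 and at 1696, 5633 and 5622 CPM. All of these were lowest in replicate 1. Col22a1, a fibril-associated chain, followed the same order at 545, 1705 and 1629 CPM.

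The second set of collagens ran the other way. Col3a1, the fibrillar chain of soft connective tissue, stood at 1330.1, 426 and 76.7 CPM, and it was the most abundant member for which replicates 2 and 3 themselves differed by over 2-fold. Col6a1, of the microfibrillar type VI collagen, stood at 382, 115 and 66.7 CPM, and Col6a2 and Col6a3 had the same order. Col8a1 stood at 233, 41.0 and 8.84 CPM and the basement membrane chain Col4a1 at 27.3, 3.88 and 1.01 CPM, and these 2 had the largest spread of the list. As a list the collagen chains were uneven: the median SD of log2 CPM was 0.96 against 0.29 over all members, and 27 of 30 differed by over 2-fold.

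Col2a1, best known as the main collagen of cartilage, ranked 13 with 2059, 6461 and 6635 CPM. Per kilobase it stood at 0.0298, 0.0295 and 0.0301 of the Col1a1 level in replicates 1, 2 and 3. Of the 8 members of the chondrocyte list, Col2a1, Col11a2 and Col9a1 were lowest in replicate 1 and the other 5 were highest there. Col9a1, a chain of type IX collagen, stood at 3.73, 9.61 and 9.32 CPM. Acan, the aggregating proteoglycan of cartilage, stood at 31.0, 6.79 and 2.50 CPM, Comp, a cartilage and tendon matrix protein, at 549, 197 and 100.5 CPM, and Hapln1, the link protein, at 46.4, 18.0 and 9.77 CPM, all highest in replicate 1. Col10a1, Col9a2, Col9a3, Matn3 and Snorc had fewer than 10 counts in at least 1 library and were not members, and Col9a3 had 322, 7 and 0 counts. The summed CPM of the chondrocyte list was 4615, 12395 and 12408, most of it Col2a1 and Col11a2.

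To see which genes kept a fixed proportion to Col1a1, the ratio per kilobase was taken for the 995 other members with a length and a mean of at least 100 CPM. This comparison was chosen after the values were seen. The median SD of the log2 ratio over the PBS libraries was 0.84. Among the 20 genes with the smallest SD were 6 of the 14 collagen chains compared: Col5a2 (0.014), Col2a1 (0.015), Col1a2 (0.018), Col11a2 (0.036), Col22a1 (0.049) and Col24a1 (0.16). Others in that set were the citrate transporter Slc13a5, the secreted semaphorin Sema3d, the proprotein convertases Pcsk5 and Pcsk6, and the proteoglycan Bgn. In the 5 libraries titled DOX, which had no part in the choice, the median SD of the log2 ratio was 0.368 and 3 of the 20 genes were again among the 20 closest, Col22a1, Col1a2 and Col11a2. Col2a1 was not one of them: its ratio to Col1a1 ran from 0.01998 to 0.0311 over those libraries, and that of Col1a2 ran from 0.846 to 0.926.

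The noncollagenous matrix genes held 48 members of 52 listed, and the most abundant were the proteins that bind collagen or mineral. Per kilobase, Bglap was the most abundant member of all, with 29189, 43742 and 52389.8 CPM per kilobase in replicates 1, 2 and 3. Col1a1 (33169.6 ± 17015), Col1a2 (28402 ± 14432), Sparc (20209 ± 7388) and Bglap2 (14428 ± 4324 CPM per kilobase, mean ± SD, n = 3) followed it. Col1a1 stood at 13523, 42864 and 43122 CPM per kilobase, so Bglap was above it in each library, narrowly in replicate 2, while the spreads of the 2 genes overlapped. Bglap2 is a near-identical copy of Bglap, so the division of reads between the copies depends on how the authors counted. Their ratio per kilobase was 2.97, 2.90 and 2.85.

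Sparc, the collagen- and calcium-binding protein osteonectin, stood at 32219.9, 62461 and 70285 CPM, and Dcn, the proteoglycan decorin, at 4456, 7187 and 7488 CPM. Lum, the related lumican, was more even at 2398, 3168 and 2645 CPM. Ibsp, at 11333, 10639 and 13578 CPM, had the smallest spread of the 6 members of highest mean CPM with TMM scaling, an SD of 0.18 on the log2 scale against 0.43 for Bglap. With library totals the order turned, with 0.35 for Ibsp and 0.13 for Bglap. Spp1 had the largest spread of them under each scaling. It stood at 21539, 4989 and 4014 CPM, an SD of 1.32, with replicate 1 far above the others under each scaling tried. Per kilobase the ratio of Spp1 to Ibsp was therefore 2.39 in replicate 1, 0.588 in replicate 2 and 0.371 in replicate 3.

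Several matrix proteins with leucine-rich repeats were highest in replicate 1. Fmod, the proteoglycan fibromodulin, stood at 289.6, 70.4 and 21.3 CPM, Chad, the leucine-rich repeat protein chondroadherin, at 199, 58.5 and 20.4 CPM and Aspn, asporin, at 67.9, 35.01 and 2.18 CPM. Prelp, of the same family, and Mgp, the matrix Gla protein that inhibits mineralisation, had the largest spread of the list. Prelp stood at 52.6, 6.72 and 0.293 CPM and Mgp at 30.1, 0.388 and 0.506 CPM. Replicate 1 was the highest library for 32 of the 48 members and the lowest for 14, and with library totals it was the highest for 40 and the lowest for 7. Of all 12765 members it was the highest for 5360 and the lowest for 5165. With library totals these numbers were 10481 and 1196, so the count with totals is close to that of all members.

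The mineralisation genes (21 members of 24 listed) included both the enzymes that free phosphate and those that make pyrophosphate. Alpl was even, at 1743 ± 186 CPM (SD, n = 3). Smpd3, the sphingomyelinase needed for mineral in bone and cartilage, stood at 459, 1268 and 1201 CPM and Phex, the endopeptidase lost in X-linked hypophosphatemia, at 306, 707 and 804 CPM. Both were lowest in replicate 1. Enpp1, which makes pyrophosphate, ran the other way at 183, 42.4 and 16.2 CPM, as did Ank, which helps pyrophosphate out of the cell, at 125, 64.7 and 49.2 CPM. Car3, a carbonic anhydrase, ranked 11 at 2679, 5629 and 7412 CPM. Phospho1, the phosphatase of matrix vesicles, was low in all libraries at 1.57, 2.76 and 3.38 CPM, and Ifitm5, a membrane protein of bone-forming cells, stood at 169, 252 and 289.8 CPM.

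Osteocyte genes were present unevenly, with 19 of 23 listed among the members. Of the 19, 10 were highest and 6 lowest in replicate 1, against 5360 and 5165 of all 12765 members. Lowest there were, besides Phex, Cpz at 95.1, 319 and 361 and Slc8a3 at 27.4, 62.1 and 59.9 CPM per kilobase. So were Dkk1 at 13.1, 24.2 and 37.2 and Irx5 at 13.6, 17.6 and 26.3 CPM per kilobase, and Pdpn with 557, 1219 and 1173 counts. The genes given next were highest there. Dmp1, a phosphoprotein of early osteocytes, stood at 873, 474 and 501 CPM and Mepe at 69.8, 20.4 and 51.6 CPM. Sost, the WNT inhibitor of mature osteocytes, had 85, 41 and 35 counts, or 1.55, 1.06 and 0.932 CPM. Fgf23, the phosphate hormone of osteocytes, was below 10 counts in at least 1 library and was not a member. In RNA of sorted pools, a small number of cells with a high level and many cells with a low level cannot be told apart.

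Genes for folding, processing and crosslinking of collagen were nearly all members (36 of 38). Serpinh1, the collagen chaperone HSP47, stood at 4041, 5310.1 and 5887 CPM. P4hb, protein disulfide isomerase and a subunit of prolyl hydroxylase, was even at 1327, 1450.0 and 1371 CPM (SD 0.065 on the log2 scale). Several of their partners were lower in replicate 1, among them the hydroxylase subunit P4ha1 at 201, 424 and 398 CPM. The lysyl hydroxylase Plod2 stood at 505, 849 and 921 CPM and the chaperone Fkbp10 at 382, 887 and 839 CPM. The subunit P4ha3 ran the other way with 1086, 161 and 66 counts, and 6 of the 36 members were highest in replicate 1. Lox, which starts crosslinking, stood at 1214, 2669 and 2748 CPM, and Bmp1, which cleaves the procollagen C-propeptide, at 449, 878 and 873 CPM. Of the genes of the list with a mean of at least 10 CPM, the lysyl oxidase homologues Loxl1 and Loxl2 had the largest spread and opposite order, with 76.4, 20.4 and 5.97 CPM for Loxl1 and 24.2, 74.0 and 105 CPM for Loxl2. Replicate 1 was the lowest library for 29 of the 36 genes, for 24 with totals that leave out Col1a1 and Col1a2 and for 19 with library totals. Of all 12765 members it was the lowest for 5165, 3363 and 1196 under these scalings.

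The secretory pathway genes were abundant, and of the 10 lists of osteoblast and general genes they had the lowest median SD under each of 3 scalings, 0.23 with TMM, 0.26 with library totals and 0.21 with totals that leave out Col1a1 and Col1a2. All 82 listed genes in the table were members, 81 of them had a mean of at least 10 CPM, and 45 were among the 500 most abundant members. With TMM, 7 of 82 (8.54%) differed by over 2-fold, against 22.7% of all members, a share close to the 8.91% of the 7260 members with at least 10 CPM. With library totals 11 of 82 (13.4%) did, above the 4 of 36 (11.1%) of the collagen folding list. That share was 38.9% over all members and 25.1% over those with at least 10 CPM. The TMM median SD of the list was near that of all members of like level, 0.215 from 10 to 100 CPM and 0.231 from 100 to 1000 CPM. Hspa5, the chaperone BiP of the endoplasmic reticulum, stood at 1296, 897 and 945 CPM, and Pdia3, which folds glycoproteins, at 931, 835 and 905 CPM. Arf4, a small GTPase of Golgi traffic, stood at 865, 1120.4 and 1083 CPM, and Ssr3, a subunit of the translocon-associated complex, at 669, 1016 and 986 CPM. Sec11a, a signal peptidase subunit, was among the 15 genes of smallest spread of all, at 94.8, 94.4 and 94.0 CPM. The 2 of largest spread among the 7 were Sdf2l1, a chaperone cofactor induced by unfolded proteins, at 27.6, 7.18 and 14.2 CPM, and Kdelr1, a retrieval receptor, at 81.3, 151 and 193 CPM. Replicate 1 was lowest for 52 of 82 with TMM scaling and highest for 60 of 82 with library totals, so the direction of this list depends on the scaling. Of all 12765 members it was lowest for 5165 with TMM scaling and highest for 10481 with library totals.

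**Figure D2:**
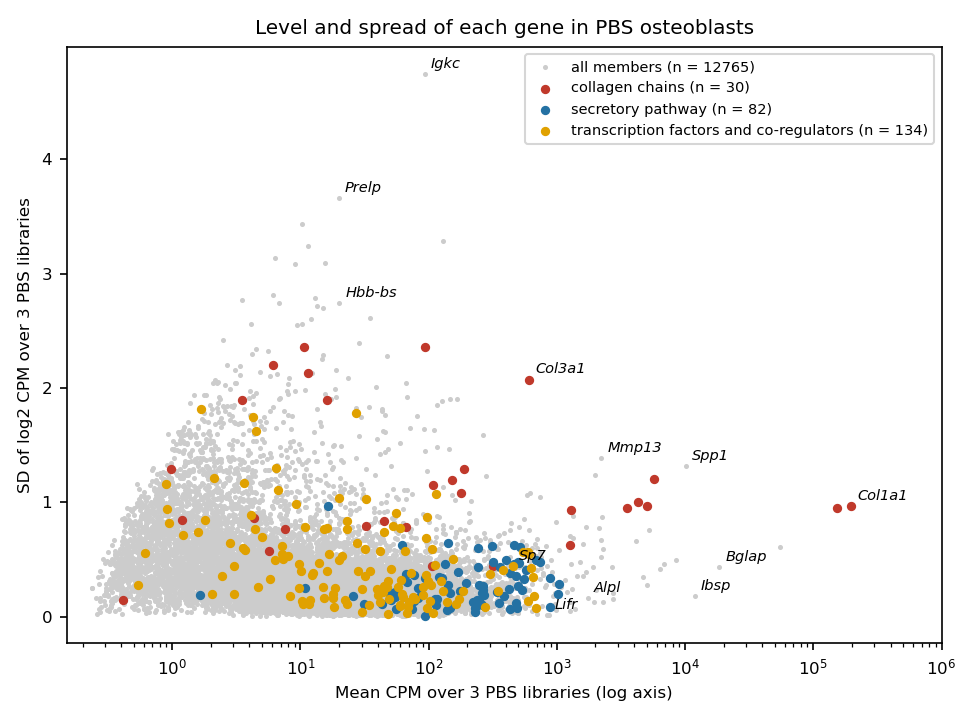
Mean CPM (log axis) against the SD of log2 CPM over the 3 PBS libraries, 1 grey dot per member, with collagen chains in red, secretory pathway genes in blue and transcription factors in yellow. Secretory genes lie at 0.23 in the median, near all members of 10 to 1000 CPM. Collagen chains lie high at 0.96, as do Spp1, Mmp13 and Igkc.

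Among secreted signals, 77 of 107 listed genes were members, and the most abundant per kilobase were Ccn1, Metrnl, Wif1, Ccn4 and Bmp3. Ccn1, a matrix-associated regulator of adhesion, stood at 375, 556 and 480.0 CPM per kilobase, and the hormone-like Metrnl at 222, 314 and 399.5. Wif1, which binds WNT ligands and blocks them, was even at 171, 191 and 159 CPM per kilobase. Bmp3, the bone morphogenetic protein that opposes other members of its family, stood at 384, 714 and 753 CPM, beside Bmp2 (59.5, 42.8 and 54.7), Bmp7 (25.1, 62.4 and 73.0) and Bmp4 (10.8, 10.7 and 9.61 CPM). Per kilobase Bmp3 stood at 83.4 ± 27.4, Bmp2 at 14.7 ± 2.41, Bmp7 at 14.6 ± 6.86 and Bmp4 at 5.02 ± 0.312 CPM per kilobase. Bmp4 and Bmp5 were nearly equal in the 3 libraries, with 10.1, 9.87 and 10.1 CPM for Bmp5. Of the genes of latent TGF-β, Tgfb1 at 77.5, 83.8 and 78.3 CPM and the binding protein Ltbp3 at 111, 111 and 102 CPM were even. Tgfb2 with 650, 90 and 135 counts and Ltbp2 with 1216, 213 and 214 counts were uneven and highest in replicate 1.

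Uneven ligands were common, with 44 of the 77 members over 2-fold between libraries against 22.7% of all members, and they included signals to osteoclasts and blood-forming cells. Tnfsf11, which encodes the osteoclast differentiation factor RANKL, stood at 25.3, 5.71 and 1.57 CPM, and its decoy receptor Tnfrsf11b (osteoprotegerin) at 109, 20.6 and 24.6 CPM. The ratio of Tnfsf11 to Tnfrsf11b per kilobase was 0.293, 0.349 and 0.0804. Csf1, the macrophage growth factor, stood at 269, 123 and 102 CPM, Cxcl12, which retains blood stem cells in marrow, at 589.8, 134 and 68.8 CPM, and Kitl, stem cell factor, at 21.0, 8.24 and 7.16 CPM. In each of these, replicate 1 was the highest library under each scaling tried. The binding proteins Igfbp4 (307, 84.4 and 41.4 CPM) and Igfbp6 (33.1, 1.03 and 2.24 CPM) and the matricellular Ccn2 (253, 48.1 and 29.1 CPM) and Ccn5 (126, 9.51 and 7.16 CPM) had the same order of replicate 1 over the others. Dkk1, a WNT inhibitor, ran from low to high at 31.9, 58.8 and 90.2 CPM. Il6, Il11, Igf2, Fgf18, Wnt1 and Ccl2 were among the 28 listed genes in the table that were not members.

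Receptors had a median SD of log2 CPM of 0.32 over 84 members of 106 listed, against 0.62 for the ligand list and 0.29 over all members. Pth1r, the receptor for parathyroid hormone, was the most abundant of the list per kilobase and stood at 298, 324 and 332 CPM per kilobase, with an SD of 0.081 on the log2 scale. Lifr, a receptor of the interleukin-6 family, was nearly equal in all libraries at 845, 857 and 861 CPM, and its partner Il6st stood at 129.9, 173 and 167 CPM. Nrp2, a co-receptor for semaphorins and VEGF, had the highest CPM of the list at 829, 2130.3 and 2111 and was lowest in replicate 1. Fgfr1 stood at 287, 409 and 406 CPM and Fgfr2 at 328, 327 and 399.7 CPM. The WNT co-receptors Lrp5 and Lrp6 stood at 23.0, 36.5 and 45.3 and 35.2, 39.3 and 37.3 CPM, and Lrp4, a co-receptor of sclerostin, at 68.8, 55.5 and 47.5 CPM. Of the receptors with a mean of at least 10 CPM, the widest spreads were those of Pdgfrb, a receptor of mural and stromal cells, at 125, 38.2 and 15.4 CPM, and of the TGF-β co-receptor Tgfbr3 at 55.5, 18.1 and 8.15 CPM. Pdgfra, by contrast, was higher in replicates 2 and 3, at 183, 348 and 327 CPM.

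Of the 149 transcription factors and co-regulators listed, 134 were members, and 15 of those were among the 500 most abundant. Per kilobase the highest was Nupr1, a small stress-associated chromatin protein, at 819, 791 and 878 CPM per kilobase, then Id3, an inhibitor of helix-loop-helix factors, at 478, 413 and 496. Both were even. Fos, an immediate early factor, stood at 401, 267 and 263 CPM per kilobase and Egr1 at 168, 117 and 76.9, both highest in replicate 1. Some factors known for the osteoblast were lowest in replicate 1, and others were not. Sp7 stood at 92.7, 164 and 149.8 CPM per kilobase and Creb3l1, which drives secretory and collagen genes, at 146, 291 and 268. Runx2 stood at 155, 194 and 209 CPM, and its binding partner Cbfb stood at 218, 333 and 348 CPM. The ratio of Sp7 to Runx2 per kilobase was 4.23, 5.98 and 5.09. Mef2c, which is needed for Sost expression in osteocytes, stood at 435, 692 and 754 CPM, the vitamin D receptor Vdr at 474, 402 and 272 CPM and Atf4, a regulator of amino acid supply, at 124, 144 and 146 CPM. Dlx3 and Dlx5 stood at 101, 182 and 186 and 84.0, 77.1 and 66.6 CPM. Smad4, the shared partner of BMP and TGF-β signals, Tcf7l2, a WNT effector, and Nr3c1, the glucocorticoid receptor, were nearly equal in the 3 libraries, with an SD of 0.031, 0.025 and 0.032 on the log2 scale.

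Among the wider spreads of the factors with a mean of at least 10 CPM was that of Tsc22d3, a target of glucocorticoids, at 218, 67.4 and 54.8 CPM. With TMM scaling replicate 1 was highest for 63 and lowest for 49 of the 134 genes, and with library totals it was highest for 112. Of all 12765 members it was highest for 5360 and lowest for 5165 with TMM scaling and highest for 10481 with library totals.

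**Figure D3:**
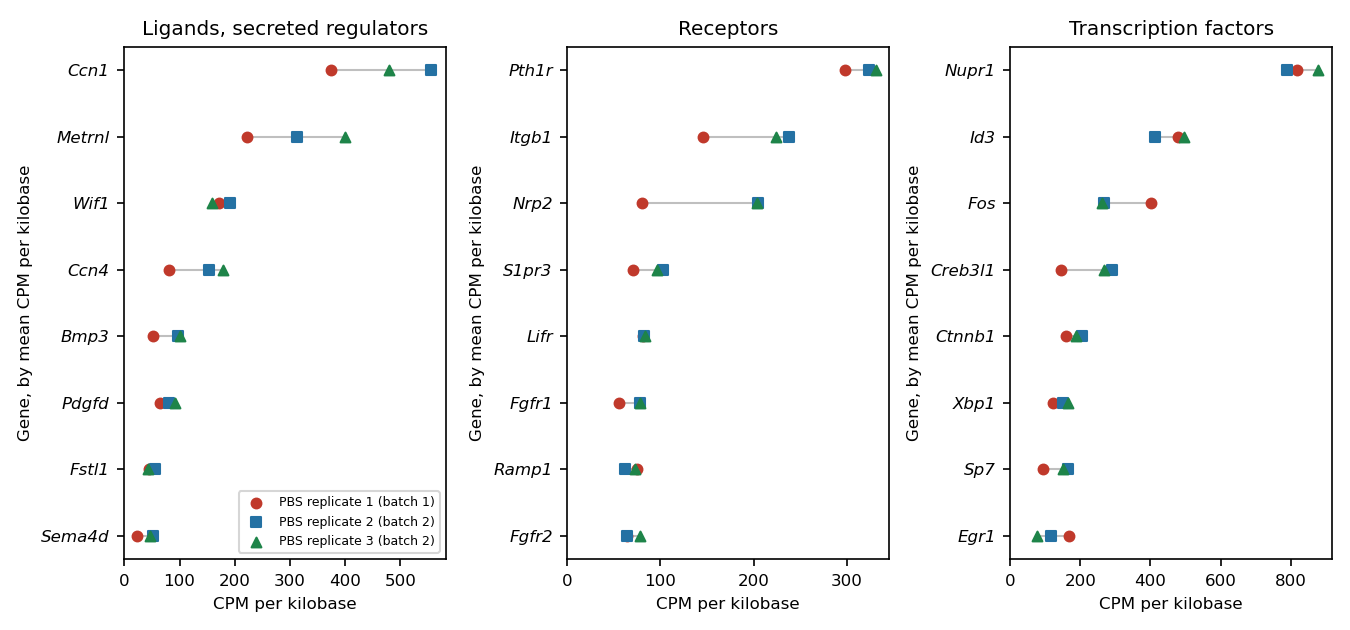
CPM per kilobase (linear axes from 0, a different range in each panel) of the 8 members of highest mean in the ligand, receptor and transcription factor lists, with a symbol for each PBS library. Wif1, Pth1r, Lifr, Nupr1 and Id3 show little distance between libraries, and replicate 1 lies low for Ccn4, Nrp2 and Sp7 and high for Fos.

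Across all members, the median SD of log2 CPM was 0.29, with 0.09 at the 10th percentile and 0.81 at the 90th, and the common biological coefficient of variation was 0.333. Without replicate 1 the median SD was 0.147 and the coefficient 0.197. With TMM scaling, spread was narrowest at middle levels: 54.7% of members below 1 CPM differed by over 2-fold, 37.8% from 1 to 10 CPM, 8.13% from 10 to 100 CPM, 12.1% from 100 to 1000 CPM and 44.4% above 1000 CPM. The median counting error went down over these classes, from a coefficient of variation of 0.188 below 1 CPM to 0.0033 above 1000 CPM. No molecular identifiers are named, so this counting error takes each read as independent. Low genes thus had few counts, and the most abundant genes had many. The median trended biological coefficient of variation, which is fitted apart from counting error, was also widest for low genes. It was 0.475 below 1 CPM, 0.420 from 1 to 10 CPM, 0.242 from 10 to 100 CPM, 0.255 from 100 to 1000 CPM and 0.280 above 1000 CPM. The housekeeping genes had a median SD of 0.29, with 124, 124 and 119 CPM for Gapdh and 996, 1814 and 1710.2 CPM for Actb.

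Of the 7260 members with a mean of at least 10 CPM, the 15 of smallest SD were Alg8, Thra, Sec11a, Ncor1, Mfn2, Zfp12, Chmp1a, Shprh, Tspyl1, Nme1, Psmd12, Cdk5rap2, Prdx6, Uhrf1bp1l and Pigbos1. Alg8, a glucosyltransferase of protein glycosylation, stood at 18.0, 18.0 and 18.0 CPM and the nuclear co-repressor Ncor1 at 121, 121 and 119.7 CPM. The SD of Alg8 was 0.0032 on the log2 scale, below the median counting error of its class of level, a coefficient of variation of 0.0294. The 15 of largest SD, without immunoglobulin genes, were Prelp, Mgp, Gpnmb, F13a1, Prss23, Hbb-bs, Cav1, Hba-a1, Aspn, Igfbp6, F3, Lgals3, Col4a1, Col8a1 and Itgbl1. Gpnmb, a glycoprotein of osteoblasts and myeloid cells, stood at 31.9, 2.22 and 0.320 CPM, and Cav1, a coat protein of caveolae, at 37.5, 1.27 and 1.54 CPM. Lgals3, which encodes galectin-3, stood at 77.5, 4.60 and 4.10 CPM. In all 15, replicate 1 was the highest library.

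The 3 libraries were not equally alike. The median absolute difference of log2 CPM was 0.39 between replicates 1 and 2, 0.40 between replicates 1 and 3 and 0.20 between replicates 2 and 3. Replicates 2 and 3 shared 97 of their 100 most abundant members, and replicate 1 shared 75 and 77 with them. Of the 7260 members with at least 10 CPM, 359 had replicate 1 more than 2-fold apart from both others, 180 of them below and 179 above, while replicate 2 stood apart in this way in 4 and replicate 3 in 28. The scaling bears on the direction: the mean of replicates 2 and 3 minus replicate 1 had a median of -0.02 over all members with TMM, -0.64 with library totals and -0.23 with totals that leave out Col1a1 and Col1a2. Library totals move every such difference by -0.63 on the log2 scale. The difference of Alpl then went from 0.28 to -0.35 and that of Ibsp from 0.08 to -0.54, while that of Col1a1 went from 1.67 to 1.04 and that of Spp1 from -2.27 to -2.89.

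**Figure D4:**
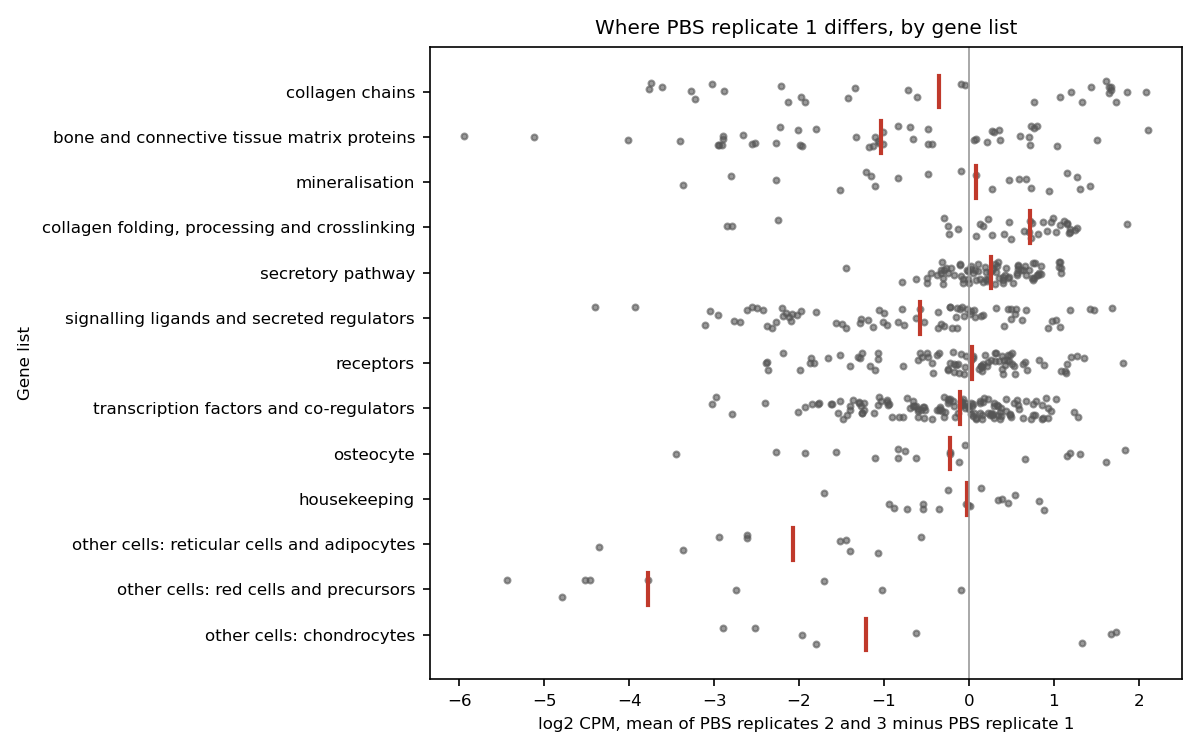
Mean log2 CPM of PBS replicates 2 and 3 minus replicate 1 (TMM scaling), 1 dot per member gene in each of 13 gene lists, with a red bar at the median of the list. Genes to the left of 0 were higher in replicate 1. Collagen folding genes lie mostly to the right, and all 10 reticular cell and adipocyte genes lie to the left.

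Markers of other cells that the digestion and sort could hold moved with replicate 1. All 10 members of the reticular cell and adipocyte list (14 listed) were highest there, with summed CPM over the list of 951, 266 and 160. Adipoq, which encodes adiponectin, stood at 19.8, 2.40 and 1.46 CPM, Lepr, the leptin receptor of marrow stroma, at 95.7, 58.0 and 35.8 CPM, and Cfd, adipsin, was at 0 in all libraries. The red cell list summed to 260, 69.3 and 105 CPM, with Hbb-bs at 54.6, 1.29 and 4.18 CPM. In each library Car2, which is also in the mineralisation and osteoclast lists, held the most counts of this list. It stood at 37.5, 27.3 and 45.1 CPM per kilobase, highest in replicate 3, while 8 of the 9 members were highest in replicate 1. The endothelial list summed to 34.7, 8.40 and 7.94 CPM, and the endothelial genes Cdh5, Kdr, Cldn5 and Tie1 were at 0 in replicates 2 and 3. The tendon, periosteum and fibroblast list summed to 1648, 990 and 696 CPM, a sum carried by Postn, Thbs4 and Fmod, while 4 of its 9 members, Scx, Mkx, Tnmd and Pdgfra, were lowest in replicate 1. The monocyte and macrophage list summed to 106, 43.5 and 28.4 CPM, most of it Vcam1, which stromal cells also express, at 95.7, 35.8 and 12.5 CPM. Their part in the differences of replicate 1 was not tested.

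Most B cell transcripts moved with replicate 3 instead. Of the 8 members of the list, 7 were lowest in replicate 1, and Ebf1 was highest there with 2983, 1470 and 1598 counts. Ebf1 held the most counts of the list in replicates 1 and 2. Igll1, not a member, was also highest in replicate 1 with 82, 0 and 12 counts. Ighm, the heavy chain of immunoglobulin M, stood at 4.53, 14.3 and 369.5 CPM and Igkc, the kappa light chain constant region, at 0.512, 1.83 and 276 CPM. Jchain, of secreted immunoglobulin, had 0, 3 and 3951 counts. Cd79a, of the B cell surface, was low in all 3, with 37, 85 and 155 counts. Counts of immunoglobulin and hemoglobin genes, which have close copies, are uncertain. The B cell list summed to 65.0, 61.9 and 811 CPM. None of the 10 T and NK cell genes was a member, and their summed CPM was 0.950, 1.78 and 1.172. Neutrophil, mural, skeletal muscle and Schwann cell or neuron genes were low, with summed CPM from 11.2 to 53.4, 138 to 165, 4.29 to 6.90 and 12.2 to 28.8. Of the osteoclast list, which summed to 463, 364 and 351 CPM, Ctsk made up most at 319, 298 and 250.2 CPM. Acp5, the tartrate-resistant phosphatase, stood at 6.91, 5.45 and 5.65 CPM. Itgb3 stood at 7.81, 1.56 and 1.44 and Mmp9 at 6.98, 0.952 and 1.69 CPM per kilobase. These were the 4 of the 5 members highest in replicate 1, against 5360 of all 12765 members, and Car2 was highest in replicate 3.

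Measures of the libraries moved with replicate 1 as well. Mitochondrially encoded genes took 1.28, 0.560 and 0.605% of counts, hemoglobin genes 0.0167, 0.000273 and 0.000774%, and genes with at least 1 count numbered 18752, 18220 and 17296. Transcript length moved with it too: the difference of replicates 2 and 3 minus replicate 1 had a median of -0.37 for members below 1 kb, -0.12 from 1 to 2 kb, 0.09 from 2 to 4 kb, 0.17 from 4 to 8 kb and 0.08 above 8 kb, among members with at least 10 CPM. The part of these in the gene differences was not tested.

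Whether the labelled batches differ was tested in libraries outside the PBS group. The 5 libraries titled DOX hold 2 of batch 1 and 3 of batch 2, and edgeR's quasi-likelihood test compared batch 2 with batch 1 among them, without any PBS library. The library titled DOX replicate 1 carries a treatment tag of PBS, so its group rests on its title. Of 15616 genes tested, 0 (0%) passed an adjusted p of 0.05 with Benjamini-Hochberg adjustment, and 0 of the 12742 members tested did. The smallest adjusted p was 0.193, and 1011 genes (6.47%) had an unadjusted p under 0.05. DESeq2 called 100 genes, 49 higher and 51 lower in batch 2. Without DOX replicate 2, batch 1 is left with DOX replicate 1 alone, the library with the PBS tag. Batch and treatment tag then cannot be told apart, so no batch result is drawn from that fit.

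Of the genes that set PBS replicate 1 apart, 4 picked as examples had batch differences within their standard error in the DOX libraries. With 2 libraries against 3, such values do not show that a batch difference is absent. Col1a1 stood at 106009, 219579 in batch 1 and 212360.0, 140004 and 156832 in batch 2 (CPM, scaled among the DOX libraries), so the batches overlapped, and its difference was 0.06 with a standard error of 0.32 on the log2 scale (edgeR adjusted p = 0.984). Spp1 stood at 4040.4, 8916 in batch 1 and 5695, 10211 and 6364 in batch 2, a difference of 0.20 ± 0.36 (SE), against -2.27 in PBS. Mmp13 had a difference of -0.25 ± 0.36 and Col3a1 of -0.11 ± 0.78 (log2, SE). Col1a1, Mmp13 and Col3a1 had the same sign as in PBS, and Spp1 had the opposite sign. Hbb-bs and Igkc also had the same sign as in PBS, and a large size, although the PBS difference of Igkc came mostly from replicate 3. The batch differences in DOX were -4.36 ± 0.53 for Hbb-bs and 5.74 ± 0.82 for Igkc, and neither passed the adjusted threshold (edgeR adjusted p = 0.193 and 0.218).

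Across the 7260 members of at least 10 CPM, which are not independent of each other, the difference in PBS and the batch difference in DOX had a Pearson correlation of 0.435 and a Spearman correlation of 0.361. The sign was the same for 62.4% of them, and for 408 of the 492 members (82.9%) whose mean of PBS replicates 2 and 3 was over 2-fold from replicate 1. None of those 492 passed the threshold in DOX, where 0 of all 15616 genes tested did, so this count says nothing particular to them. The length classes did not show the PBS pattern there, with median batch differences of -0.0049, 0.09, 0.07, 0.0094 and -0.11 from the shortest to the longest class.

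**Figure D5:**
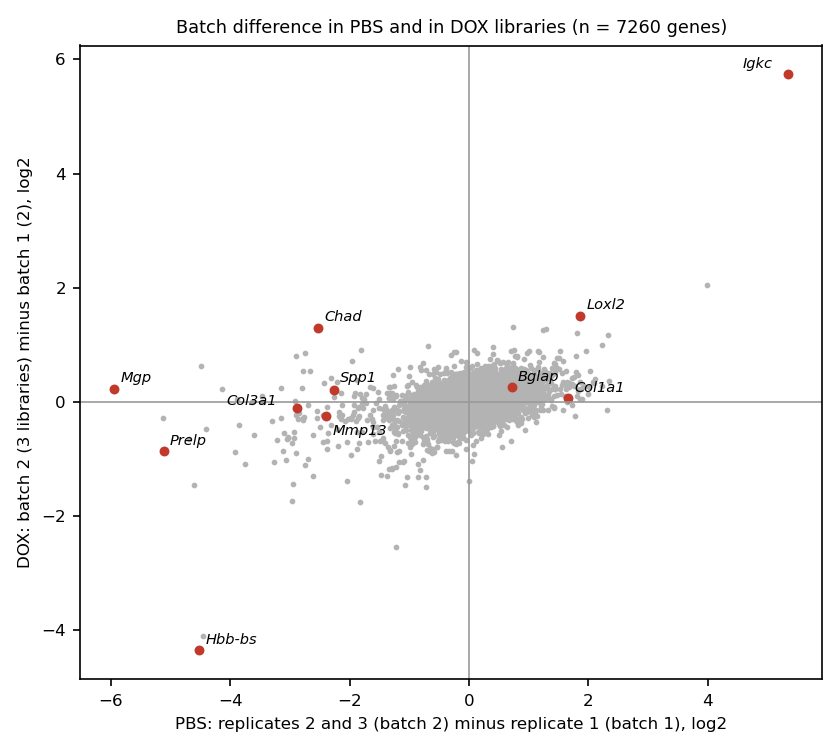
Difference of PBS replicates 2 and 3 (batch 2) minus replicate 1 (batch 1) against the edgeR batch difference in the 5 libraries titled DOX, both on the log2 scale, for 7260 members with at least 10 CPM. Hbb-bs and Igkc lie far from 0 on both axes, and Mgp, Spp1 and Col3a1 lie near 0 on the DOX axis.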

How the data were processed

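Messenger RNA of sorted osteoblasts was measured by RNA-seq, with cDNA made by the SMART-Seq v4 Plus kit, per the labels' protocols. The authors deposited unnormalised counts of reads for each gene symbol, 1 column per library. The submitters' processing notes name STAR 2.7.9a, featureCounts 2.0.1, Trim Galore 0.6.6 and SAMtools 1.17, the quality tools MultiQC 1.7 and FastQC 0.11.5, and the mouse genome GRCm39. Gene annotation, strandedness and the treatment of multimapping reads: not given in the sources used here. Reads of overlapping and near-identical genes can therefore be split or lost. No gene in the table has fewer than 10 counts summed over the 8 libraries, so genes with low totals had been removed before deposit.

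Groups were taken from the titles. Levels were computed in R 4.3.3 with edgeR 4.0.16: TMM factors over the members in the 3 PBS libraries, CPM, and log2 CPM with a prior count of 2. Length is the union of exons per gene symbol in GENCODE M21 (build GRCm38), found for 12676 members and missing for 89. No coordinates of that annotation were used. The batch test was edgeR's quasi-likelihood test, two-sided, with the filterByExpr filter and limma 3.58.1 loaded, and DESeq2 1.42.0 was an alternative. Its standard errors (SE) were computed back from the test, as the absolute log2 difference over the square root of the F statistic. The test was tested on simulated data. Figures were made in matplotlib 3.10.9 (Python 3.11.15). The SDs measure the spread between the libraries they cover, and the p-values are for the batch difference among the 5 libraries titled DOX. Alternatives were 3 other scalings, a minimum of 1 or 100 counts, a prior count of 0.25 and leaving out each library, and for the test also DESeq2 and no filter. The ratio to Col1a1 and the promoter windows were added after values were seen.

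The genes named are the 25 of highest mean CPM, the 4 highest and the 2 of largest spread (mean of at least 10 CPM) of each of 10 gene lists, the 15 of largest and of smallest spread, the 10 highest that differ between replicates 2 and 3, and the 2 highest of each of 13 lists of other cells. Some genes under this rule are not reported here. Other members of the lists are named as examples chosen after their values were seen. The members and lists were chosen with earlier results of these data known, so no list counts as independent support.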

Additional observations from a re-analysis of the deposited data

How the results depend on the processing

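The number of members went from 12765 to 15633 with a minimum of 1 count and to 9667 with 100. Of the 25 genes of highest mean CPM, 22 to 25 were shared under every setting. The differences of Col1a1 and Spp1 kept their direction, and that of Col1a1 went from 1.67 to 1.04 with library totals. Plain library totals raised the median SD of log2 CPM from 0.286 to 0.435 and the share of members of at least 10 CPM with over 2-fold between libraries from 8.91 to 25.1%, since they move all genes of replicate 1 together. With library totals, the mean of replicates 2 and 3 minus replicate 1 changed sign for Alpl (-0.35) and Ibsp (-0.54), and with totals that leave out Col1a1 and Col1a2 for Ibsp (-0.13). It shrank to 0.09 for Bglap and 0.13 for Sp7 with library totals. Leaving out 1 PBS library gave a median SD of 0.147 to 0.291, a share over 2-fold of 0.550 to 7.91% and a biological coefficient of variation of 0.197 to 0.392, with the lowest value of each without replicate 1. The batch test in the DOX libraries called 0 genes with edgeR, 2 with no filter, 100 with DESeq2 and 0 to 142 when 1 library was left out, 142 without DOX replicate 2. The fit without DOX replicate 2 leaves DOX replicate 1, with its PBS tag, as the only library of batch 1. Batch and treatment tag cannot be told apart there, so its count is not a batch result. The cause of the differences between the other settings was not tested. No paired analysis was possible because the only test compares batches within the DOX libraries and no contrast between groups is made. Depth limits members below 1 CPM, whose median counting error was 0.188 as a coefficient of variation.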

Other observations

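Lars2, the mitochondrial leucyl-tRNA synthetase, ranked 7 of all members at 5609.6, 8866 and 11025 CPM. The cytosolic enzyme Lars stood at 46.5, 64.3 and 61.7 CPM, and the other mitochondrial tRNA synthetases measured had means from 2.31 (Pars2) to 25.8 CPM (Iars2). The ribosomal RNA gene Rn18s stood at 1883, 1186 and 1724 CPM, so some ribosomal RNA was counted in each library. Whether reads of Lars2 come from its own messenger RNA was not tested.

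Of the genes outside the rule, the 3 of highest mean CPM were immunoglobulin genes counted almost only in PBS replicate 3. Igkv14-126 had 0, 0 and 5352 counts in replicates 1, 2 and 3, Jchain had 0, 3 and 3951, and Ighv11-2 had 0, 0 and 2129. The next was Mpo, myeloperoxidase of myeloid precursors, with 1075, 1126 and 2 counts, and then Prg2, of eosinophils, with 0, 1207 and 10 counts. Mpo was thus low in replicate 3, and Prg2 was high in replicate 2 alone.

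Mmp13, the collagenase of bone and cartilage, stood at 4802, 1002 and 839.7 CPM and was, with Spp1, one of 2 genes among the 25 most abundant that were highest in replicate 1 with TMM scaling, where 7 were with library totals. Among the 10 most abundant protein-coding members, immunoglobulin genes left out, for which replicates 2 and 3 differed by over 2-fold were Thbs4 at 358, 27.5 and 58.6 CPM, Timp3, an inhibitor of metalloproteinases, at 279, 48.4 and 23.0 CPM, Gas6, a ligand of Axl, at 163, 29.6 and 11.7 CPM and the amidating enzyme Pam at 149, 8.76 and 41.0 CPM. All 10 were highest in replicate 1.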
